A study of Mus musculus with 6 samples.

Results

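The laminins, agrin and nephronectin are proteins of the basement membrane, and the integrin and dystroglycan genes encode the cell-surface receptors that hold cells to it. The set was given by name and holds 10 genes: the laminin chains Lama5, Lamb1, Lamb2 and Lamc1, the matrix proteins Agrn and Npnt, and the receptor genes Itga3, Itgb1, Cd151 and Dag1. All 10 had a row in the single-cell tables and in both bulk tables, of 28327 genes with a transcript in the single-cell tables and 49492 gene names in the bulk tables.

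The samples were glomeruli, the capillary tufts that filter blood in the kidney, from 8-week-old male CD1 IGS outbred mice, and no sample carried a named allele or drug. 4 Drop-seq libraries (replicates 1 to 4) held dissociated glomerular cells fixed in 80% methanol, 1 bulk mRNA-seq library held dissociated, fixed and sorted glomerular cells (95 ng of RNA), and 1 bulk library held whole, live glomeruli (500 ng of RNA). Drop-seq counts captured transcripts by their unique molecular identifiers (UMIs) in single droplets. The labels did not say whether libraries came from separate animals or pools, so p-values cover no more than the variation among these 4 libraries, and that variation may be technical.

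A laminin is a trimer of an alpha, a beta and a gamma chain. The mature glomerular basement membrane, shared by podocytes on its urinary side and capillary endothelium on its inner side, is known for laminin-521, the trimer of the Lama5, Lamb2 and Lamc1 products, which in development takes the place of a trimer with the Lamb1 product. Integrin alpha 3 beta 1 (Itga3 and Itgb1), stabilised by the tetraspanin encoded by Cd151, and dystroglycan (Dag1) bind laminin, agrin is the main heparan sulfate proteoglycan of this membrane, and nephronectin (Npnt) is a ligand of integrin alpha 8 beta 1.

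Of 15465 barcodes with 18557558 UMIs, 13993 cells were kept, in libraries of 4099, 4017, 2809 and 3068 cells. 15 barcodes stood in more than 1 library, 3 of them among kept cells. Clusters, made without the 10 genes and the related lists below, were named from markers: 10547 podocyte-like, 307 parietal epithelial-like (Bowman's capsule), 1854 endothelial-like, 317 mural-like, 918 tubular-like and 50 immune-like cells, the last too few to test. The mural-like cells held 1.79% ± 0.537 of their UMIs in 6 smooth muscle and renin markers but 0.228% ± 0.0278 in 6 mesangial markers (SD, n = 4). The parietal epithelial-like cells held 0.0610% ± 0.0137 of their UMIs in 5 parietal epithelial markers, against 0.00720% ± 0.000730 in podocyte-like cells. They held 1.33% ± 0.210 in 10 podocyte markers. Of the parietal epithelial markers, Pax2 had 1 UMI in these cells and the others at least 30. A podocyte-like cluster led by H2-Q6, H2-Q7 and heat shock genes drew 1166 of its 1279 cells from replicate 4, and the podocyte-like counts are also given without that library. Podocyte transcripts were found in every type: the median of 10 podocyte markers stood, relative to its podocyte-like level, at 63.8% for parietal epithelial-like, 19.4% for endothelial-like, 13.1% for mural-like and 8.02% for tubular-like cells. Endothelial-like, mural-like and tubular-like cells carried 2 or more markers of another type in 34.3%, 37.2% and 36.4% of cells.

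In the GENCODE M21 annotation of GRCm38, which may differ from the annotation the authors counted with, the beta chain genes are Lamb1 at chr12:31265234-31329644 (plus strand) and Lamb2 at chr9:108479736-108490530 (plus strand). Lama5 lies at chr2:180176373-180225859 (minus) and Lamc1 at chr1:153218922-153332786 (minus). Agrn lies at chr4:156165290-156197488 (minus) and Npnt at chr3:132881745-132950291 (minus). The receptor genes are Itga3 at chr11:95044474-95076801 (minus), Itgb1 at chr8:128685654-128733200 (plus), Cd151 at chr7:141467392-141471473 (plus) and Dag1 at chr9:108204634-108263958 (minus). Cd151 was the member whose exons overlapped those of another gene, the opposite-strand transcript Gm10575, which had 54 counts in the dissociated and 101 in the whole bulk library against 14621 and 11235 for Cd151.

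The upstream sequences of 3 genes are shown because their levels ran apart: the beta chain genes Lamb1 and Lamb2, whose levels were opposed across cell types, and Npnt, the member with the largest rise in podocyte-like cells. The sequences come from RefSeq on GRCm38, are written on the gene's own strand from 5′ to 3′, and stop before the first base of the gene in either annotation. They are chr12:31265043-31265233 for Lamb1, chr9:108479612-108479735 for Lamb2 and chr3:132950292-132950541 for Npnt. Capitals mark GGGCGG on either strand (CCGCCC), the core letters of the GC box bound by Sp1 family factors.
Lamb1: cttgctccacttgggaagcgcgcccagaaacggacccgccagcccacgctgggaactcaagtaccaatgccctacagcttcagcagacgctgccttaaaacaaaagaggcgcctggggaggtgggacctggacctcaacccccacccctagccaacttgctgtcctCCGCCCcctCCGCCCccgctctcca
Lamb2: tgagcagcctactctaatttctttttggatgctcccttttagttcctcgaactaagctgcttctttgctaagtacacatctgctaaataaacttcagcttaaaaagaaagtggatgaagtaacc
Npnt: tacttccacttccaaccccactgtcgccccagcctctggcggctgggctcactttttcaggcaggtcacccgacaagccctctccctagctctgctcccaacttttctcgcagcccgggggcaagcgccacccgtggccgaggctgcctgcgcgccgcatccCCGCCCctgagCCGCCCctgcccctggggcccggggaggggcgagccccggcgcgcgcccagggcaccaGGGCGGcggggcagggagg
In the 250 bases before the RefSeq start listed first for each gene, the window used for counting, Lamb1 held 2 matches, Lamb2 0 and Npnt 3. GC content in that window was 62% for Lamb1, 43.6% for Lamb2 and 74% for Npnt, against a median of 52.4% over 32851 mouse promoters. RefSeq windows were matched by symbol for 9 of the 10 genes, Lamc1 being the other. Itga3, Cd151, Dag1, Agrn and Npnt had another RefSeq start, left out of the counts for the 9 genes. The windows of those starts held 1, 0, 3, 2 and 0 matches of GGGCGG. The shares of all promoters cover every start. GGGCGG stood in 8 of these 9 windows and in 32.7% of all promoters. GCGTGGG, letters reported for WT1 and EGR factors, stood in 2 of the 9 (Lamb1 and Agrn) and in 4.3% of all. TAATTA, a homeodomain core, stood in 0 of the 9 and in 4.84% of all. A match describes letters in this window and is not a binding site.

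Podocyte-like cells held higher levels of 8 of the 10 genes than the mean of the other 4 types (Lama5, Lamb2, Agrn, Npnt, Itga3, Itgb1, Cd151 and Dag1) and a lower level of 1, Lamb1. Among all 7492 genes tested, 25.6% were higher and 20.6% lower in these cells by the same rule, edgeR's quasi-likelihood test with Benjamini-Hochberg adjustment over all genes and a threshold of 0.05. With another scaling (RLE size factors) the split over all genes turned from 1919 higher and 1540 lower to 1506 and 1916, and the median log2 fold of all genes shifted from 0.02 to -0.10, while the 10 genes kept these counts. Without replicate 4 the counts were again 8 and 1 of the 10 genes, and 1710 higher and 1228 lower over all 7571 genes then tested. The median log2 fold was 0.93 for the 10 genes and 0.02 for all genes. Against single types, Lama5 and Lamb2 were called higher in podocyte-like than in tubular-like cells. Neither was called against endothelial-like, mural-like or parietal epithelial-like cells. Levels below are counts per 1000000 UMIs (CPM), taken from the total of each library and type, and folds are log2 with standard error (SE), cell type over the mean of the other 4. Each SE was worked back from the test, as the absolute log2 fold over the square root of edgeR's F statistic.

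**Figure D1:**
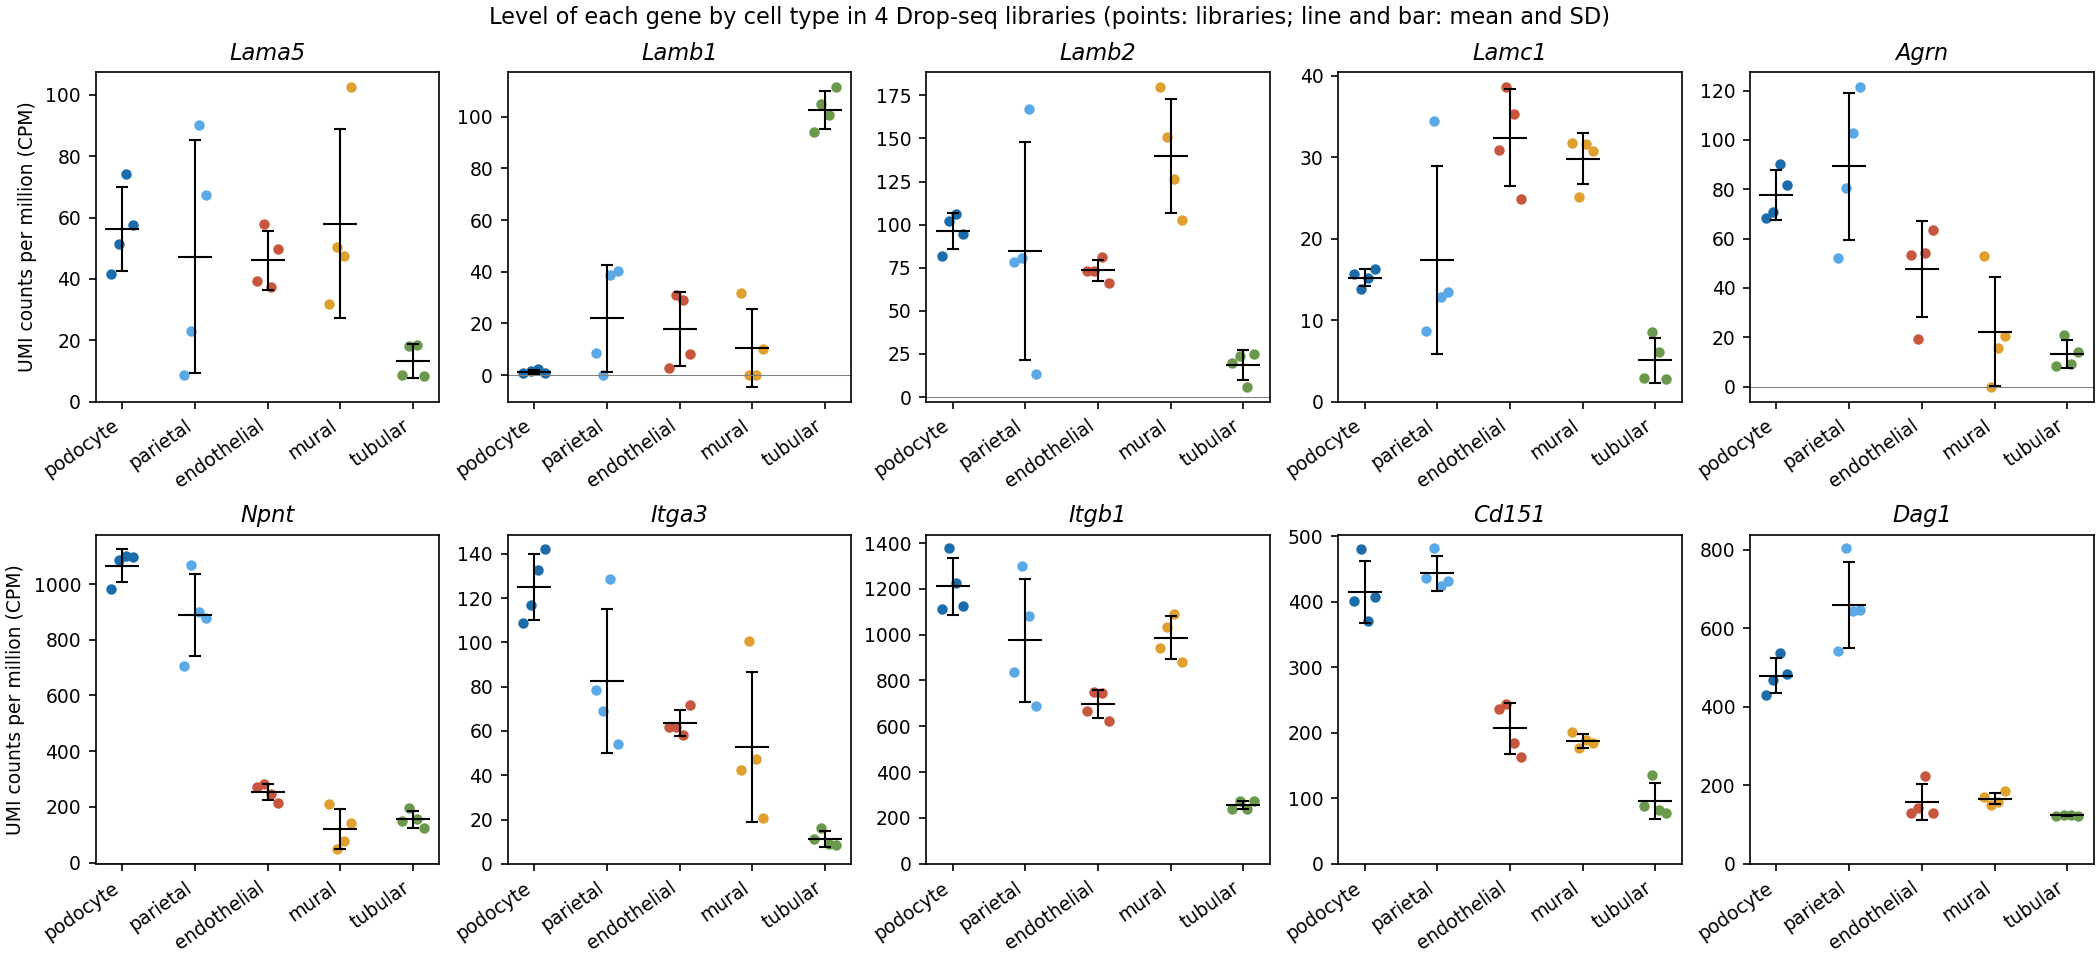
Level of each gene in CPM (vertical axis) in 5 cell types (horizontal axis); each point is 1 of 4 Drop-seq libraries, and the line and bar give the mean and SD. Lamb1 sits between 94.0 and 111 CPM in the 4 tubular-like samples and at or under 2.17 CPM in the podocyte-like ones.

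Among the laminin chains, Lamb1 had the widest range over cell types. Tubular-like cells had 94.0, 105, 100.6 and 111 CPM of Lamb1 in replicates 1 to 4, against 0.614, 1.59, 2.17 and 0.676 CPM in podocyte-like cells. All 4 tubular-like values stood above every value of the other types, and the groups did not overlap. Lamb1 rose in tubular-like cells by a log2 fold of 3.80 ± 0.27 (SE; edgeR adjusted p = 1.81e-22) and fell in podocyte-like cells (log2 fold -4.31 ± 0.58, edgeR adjusted p = 6.48e-10). The podocyte-like level rested on 16 UMIs in 10547 cells and the tubular-like level on 217 UMIs in 918 cells. Between these, parietal epithelial-like cells averaged 21.9 ± 20.6 CPM, endothelial-like 17.8 ± 14.3 and mural-like 10.5 ± 15.0 (SD, n = 4), on 7, 26 and 4 UMIs. Those 3 types did not differ between neighbours in the order beyond the spread (edgeR adjusted p = 0.928 and 0.775). Mural-like over podocyte-like cells, the lowest pair in the order, differed with edgeR adjusted p = 0.0192. Without cells carrying markers of another type, the podocyte-like fold of Lamb1 was -2.77 and lost the call (edgeR adjusted p = 1), and the tubular-like fold was 5.41 (edgeR adjusted p = 2.01e-18).

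Lamb2, the beta chain of the mature membrane, ran the other way. Mural-like cells had 180, 151, 127 and 103 CPM of Lamb2 in replicates 1 to 4, podocyte-like cells 82.0, 102, 106 and 94.7, and tubular-like cells 19.9, 23.6, 6.09 and 25.1. Every mural-like and podocyte-like value stood above every tubular-like value, while mural-like and podocyte-like values overlapped. Lamb2 rose in mural-like cells (log2 fold 1.09 ± 0.30, edgeR adjusted p = 0.00382) and in podocyte-like cells (0.53 ± 0.15, edgeR adjusted p = 0.00162), and fell in tubular-like cells (-1.94 ± 0.25, edgeR adjusted p = 1.49e-10). The mural-like call was lost without replicate 1 (0.82, edgeR adjusted p = 0.13). The podocyte-like call was lost with a mitochondrial limit of 10% (0.02, edgeR adjusted p = 0.96), a setting under which tubular-like cells left the fit. Parietal epithelial-like cells averaged 84.9 ± 63.1 CPM, with 13.5 CPM in replicate 4 and 167 in replicate 3, and endothelial-like cells 73.4 ± 5.99 (SD, n = 4).

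Within a type, the share of beta chain UMIs that were Lamb1 compares the 2 genes in the same cells without a scaling factor between libraries. Tubular-like cells held 82.5, 81.6, 94.3 and 81.6% Lamb1 in replicates 1 to 4, against 0.744, 1.53, 2 and 0.709% in podocyte-like cells. The shares were 85.0% ± 6.20 in tubular-like and 1.25% ± 0.630 in podocyte-like cells (SD, n = 4). They were 25.9% ± 33.6 in parietal epithelial-like, 17.7% ± 12.4 in endothelial-like and 6.02% ± 7.36 in mural-like cells. The 4 tubular-like shares stood above all shares of every other type, with a parietal epithelial-like share of 75% in replicate 4 as the nearest. That value came from 3 Lamb1 UMIs and 1 Lamb2 UMI. A two-sided exact permutation test over libraries gave p = 0.0286 for tubular-like against each other type, the smallest that 4 against 4 can give, and 0.0571 after adjustment over the 10 pairs of types. With types paired by library the smallest p possible was 0.125. UMI capture need not be equal for the 2 genes, so a share of 50% does not mark equal transcript numbers.

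**Figure D2:**
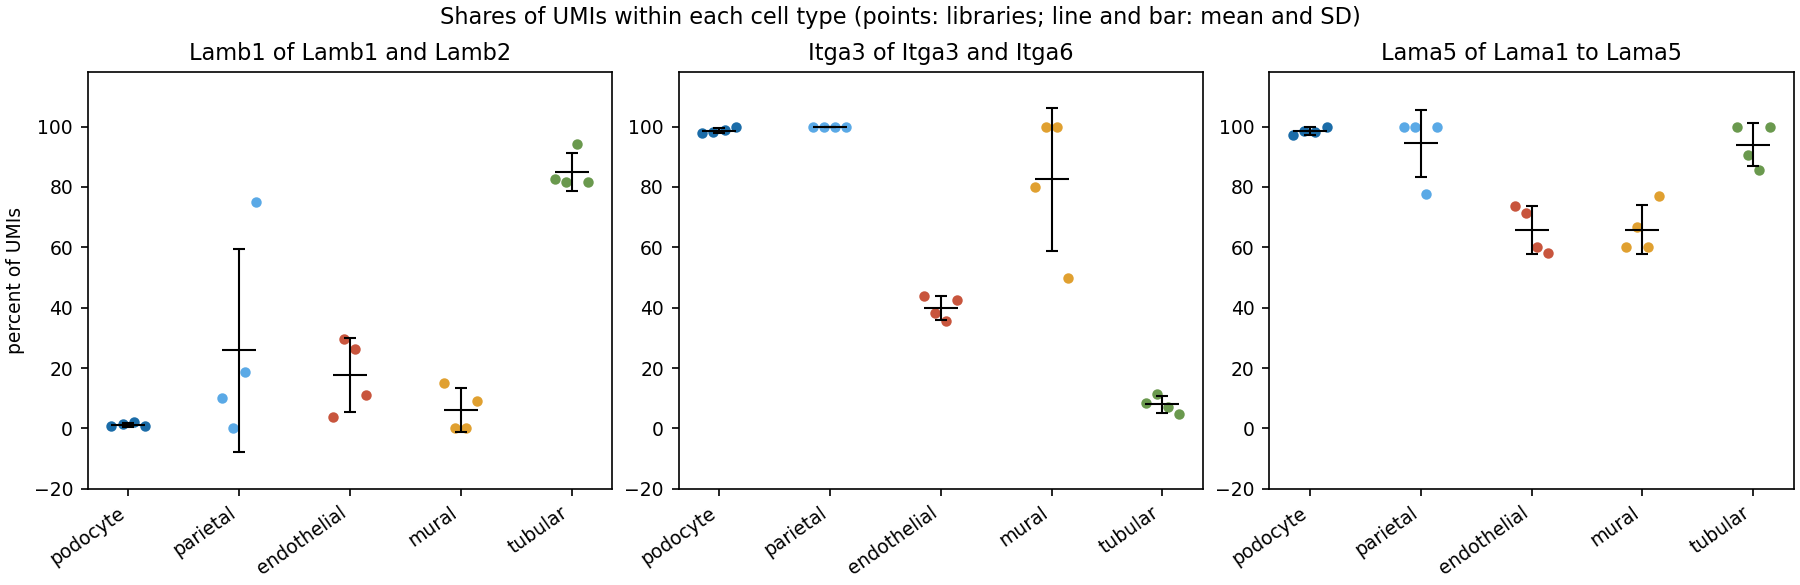
Percent of UMIs (vertical axis) within each of 5 cell types (horizontal axis) for Lamb1 among Lamb1 and Lamb2, Itga3 among Itga3 and Itga6, and Lama5 among Lama1 to Lama5; points are the 4 libraries, line and bar the mean and SD. Tubular-like cells average 85.0% Lamb1 and 7.96% Itga3, and podocyte-like cells 1.25% and 98.7%.

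Lama5, the alpha chain of the mature membrane, was lowest in tubular-like cells. Podocyte-like cells had 41.5, 51.4, 74.1 and 57.5 CPM in replicates 1 to 4, and tubular-like cells 8.54, 18.0, 18.3 and 8.35. These groups did not overlap. Lama5 fell in tubular-like cells (log2 fold -1.46 ± 0.31, edgeR adjusted p = 3.87e-05) and rose in podocyte-like cells (0.58 ± 0.18, edgeR adjusted p = 0.00663). The podocyte-like call was lost without replicate 1 (0.48, edgeR adjusted p = 0.051) and with DESeq2 (0.48, adjusted p = 0.096). Mural-like cells averaged 58.0 ± 30.8 CPM, parietal epithelial-like 47.3 ± 37.9 and endothelial-like 46.1 ± 9.59 (SD, n = 4), and among these and podocyte-like cells no neighbours in the order passed the test (edgeR adjusted p = 0.954, 0.662 and 0.88). Of all UMIs of the 5 alpha chains, Lama5 held 98.5% ± 1.19 in podocyte-like cells, 94.4% ± 11.1 in parietal epithelial-like, 94.0% ± 7.14 in tubular-like, 65.9% ± 7.99 in mural-like and 65.8% ± 7.90 in endothelial-like cells (SD, n = 4). The podocyte-like share was above the endothelial-like and mural-like shares in 4 of 4 libraries (difference 32.7 and 32.6 percentage points, each with a two-sided exact permutation p = 0.0286 and 0.0476 adjusted over 10 pairs). With types paired by library the exact p was 0.125, the smallest possible, and did not pass. The remaining alpha chain UMIs of endothelial-like cells were 19 of Lama3 and 17 of Lama4, the alpha chain of vascular laminins.

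Lamc1, the gamma chain common to most laminins, was the member called higher in endothelial-like cells. Endothelial-like cells had 30.9, 38.6, 35.3 and 24.9 CPM in replicates 1 to 4, podocyte-like cells 15.7, 13.9, 15.2 and 16.2, and tubular-like cells 2.85, 8.51, 6.09 and 2.78. The 3 groups did not overlap. Lamc1 rose in endothelial-like cells (log2 fold 1.12 ± 0.34, edgeR adjusted p = 0.00411) and fell in tubular-like cells (-1.57 ± 0.46, edgeR adjusted p = 0.00225). Podocyte-like cells were lower than endothelial-like cells by a log2 fold of -1.11 ± 0.30 (edgeR adjusted p = 0.00109), and over the mean of the other types their fold was -0.27 ± 0.29 (edgeR adjusted p = 0.492). Mural-like cells averaged 29.8 ± 3.13 CPM on 9 UMIs and parietal epithelial-like cells 17.4 ± 11.6 CPM on 6 UMIs (SD, n = 4). Lamc1 was too low to be tested with the 10% mitochondrial limit, with at least 500 detected genes per cell, or without cells carrying markers of another type.

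Agrin and nephronectin, the 2 non-laminin matrix genes, both rose in the podocyte-like and the parietal epithelial-like cells. Podocyte-like cells had 980.5, 1085, 1102 and 1098 CPM of Npnt in replicates 1 to 4, parietal epithelial-like cells 706, 1068, 901 and 876, and endothelial-like cells 272, 282, 245 and 216. Podocyte-like and parietal epithelial-like values overlapped, and both stood above every value of the other types. The Npnt fold was 1.97 ± 0.09 in podocyte-like cells (edgeR adjusted p = 1.06e-34) and 1.54 ± 0.13 in parietal epithelial-like cells (edgeR adjusted p = 9.6e-17). Between these types the log2 difference was 0.35 ± 0.13, podocyte-like over parietal epithelial-like, and missed the threshold (edgeR adjusted p = 0.0707). Npnt fell in endothelial-like (-0.59 ± 0.13, edgeR adjusted p = 7.78e-05), mural-like (-1.82 ± 0.22, edgeR adjusted p = 2.15e-11) and tubular-like cells (-1.10 ± 0.14, edgeR adjusted p = 1.84e-11). The endothelial-like call was lost with at least 500 detected genes per cell (-0.25, edgeR adjusted p = 0.15).

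Podocyte markers moved with Npnt. As a percent of the podocyte-like level, Npnt stood at 83.3% in parietal epithelial-like cells, 23.8% in endothelial-like, 14.7% in tubular-like and 11.4% in mural-like cells. The 10 podocyte markers ranged from 41.7 to 88.2% in parietal epithelial-like cells, from 13.9 to 32.9% in endothelial-like cells, from 6.94 to 10.2% in tubular-like cells and from 10.4 to 21.0% in mural-like cells. Npnt therefore lay inside the markers' range in the parietal epithelial-like, endothelial-like and mural-like cells and above it in tubular-like cells. The part of free or mixed podocyte RNA in these levels was not tested. Thinned to 500 UMIs per cell, which left out 668 podocyte-like and 379 endothelial-like cells, 37.9% ± 2.28 of podocyte-like and 8.82% ± 1.82 of endothelial-like cells had an Npnt UMI (SD, n = 4). Unthinned, with median depths of 1018 and 639.5 UMIs, the shares were 60.6% ± 6.77 and 12.7% ± 1.33.

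Agrn was measured on fewer UMIs. Parietal epithelial-like cells had 52.3, 80.4, 103 and 121 CPM in replicates 1 to 4, podocyte-like cells 68.2, 70.7, 90.2 and 81.8, and tubular-like cells 8.54, 20.8, 9.14 and 13.9. The first 2 groups overlapped and stood above the tubular-like values. Agrn rose in podocyte-like cells (log2 fold 1.04 ± 0.18, edgeR adjusted p = 8.94e-07) and fell in tubular-like cells (-1.44 ± 0.33, edgeR adjusted p = 8.96e-05). The rise in parietal epithelial-like cells (1.15 ± 0.36, edgeR adjusted p = 0.0187) rested on 30 UMIs and was lost without replicate 3 (edgeR adjusted p = 0.093), without replicate 4 (edgeR adjusted p = 0.15) and in 4 of the other settings. Endothelial-like cells averaged 47.6 ± 19.4 CPM and mural-like cells 22.3 ± 22.2 (SD, n = 4), with no mural-like UMI in replicate 2. Podocyte-like exceeded endothelial-like cells (0.63 ± 0.21, edgeR adjusted p = 0.00762).

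Both genes of the integrin pair rose in podocyte-like cells. Podocyte-like cells had 109, 117, 133 and 142 CPM of Itga3, the alpha subunit, in replicates 1 to 4, endothelial-like cells 61.8, 61.8, 58.1 and 71.9, and tubular-like cells 11.4, 16.1, 9.14 and 8.35. These 3 groups did not overlap. Itga3 rose in podocyte-like cells (log2 fold 1.55 ± 0.15, edgeR adjusted p = 3.77e-15) and fell in tubular-like cells (-2.18 ± 0.30, edgeR adjusted p = 8.71e-10). Parietal epithelial-like cells averaged 82.5 ± 32.4 CPM and mural-like cells 52.7 ± 34.0 (SD, n = 4), and neither passed the test (log2 fold 0.73 in parietal epithelial-like cells, edgeR adjusted p = 0.145). Podocyte-like over parietal epithelial-like cells, the nearest in the order, gave 0.65 ± 0.28 and missed the threshold (edgeR adjusted p = 0.162).

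Itgb1 encodes the beta subunit shared by many integrins. Podocyte-like cells had 1113, 1380, 1227 and 1124 CPM in replicates 1 to 4, and tubular-like cells 239, 274, 241 and 273. The groups did not overlap. Itgb1 rose in podocyte-like (log2 fold 0.88 ± 0.08, edgeR adjusted p = 1.34e-17), parietal epithelial-like (0.40 ± 0.11, edgeR adjusted p = 0.0053) and mural-like cells (0.38 ± 0.12, edgeR adjusted p = 0.0122), and fell in tubular-like cells (-1.58 ± 0.10, edgeR adjusted p = 1.01e-24). The parietal epithelial-like call was lost without replicate 2 (0.27, edgeR adjusted p = 0.2), with no filter on low counts (0.13, edgeR adjusted p = 0.928), with at least 500 genes per cell (0.32, edgeR adjusted p = 0.0847), and at resolutions 0.5 and 1.5 (0.33 and 0.26, edgeR adjusted p = 0.0651 and 0.107). With the 10% mitochondrial limit, which took tubular-like cells out of the fit, its fold was -0.27 (edgeR adjusted p = 0.148). The mural-like call was lost without replicate 1, 3 or 4 (0.33, 0.34 and 0.36). Podocyte-like cells exceeded mural-like cells (0.40 ± 0.12, edgeR adjusted p = 0.00659) and parietal epithelial-like cells (0.38 ± 0.12, edgeR adjusted p = 0.0267).

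Itga6, another alpha subunit tested that binds laminin with the Itgb1 product, was found mainly in tubular-like and endothelial-like cells. Tubular-like cells averaged 133 ± 21.2 CPM of Itga6 and endothelial-like cells 95.4 ± 11.8, against 1.59 ± 0.978 in podocyte-like cells (SD, n = 4), and mural-like cells had 3 UMIs. No Itga6 UMI was found in parietal epithelial-like cells, whose 307 cells held 29 UMIs of Itga3. Of Itga3 and Itga6 UMIs together, Itga3 held 97.8, 98.1, 99.0 and 99.8% in podocyte-like cells, 44.0, 38.1, 35.4 and 42.6% in endothelial-like cells and 8.51, 11.3, 7.14 and 4.84% in tubular-like cells in replicates 1 to 4. The 3 groups did not overlap, and each pair of them gave a two-sided exact permutation p of 0.0286, or 0.0357 adjusted over 10 pairs. Paired by library the exact p was 0.125 for each, the smallest possible, and did not pass. Mural-like cells had 82.5% ± 23.6 on 16 UMIs (SD, n = 4).

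Cd151 and Dag1, the tetraspanin partner and the dystroglycan precursor, shared an order with parietal epithelial-like cells first and podocyte-like cells next. Parietal epithelial-like cells had 541, 804, 643 and 647 CPM of Dag1 in replicates 1 to 4, podocyte-like cells 429, 467, 538 and 484, and endothelial-like cells 129, 143, 224 and 130. The parietal epithelial-like values were all above the podocyte-like values, with 541 and 538 CPM as the nearest, and both were above the endothelial-like ones. The log2 difference, parietal epithelial-like over podocyte-like, was 0.39 ± 0.13 and passed narrowly (edgeR adjusted p = 0.0451). That call was lost without replicate 4. Dag1 rose in parietal epithelial-like (log2 fold 1.60 ± 0.14, edgeR adjusted p = 1.27e-16) and podocyte-like cells (1.11 ± 0.09, edgeR adjusted p = 2.32e-19). It fell in endothelial-like (-0.84 ± 0.13, edgeR adjusted p = 7.01e-08), mural-like (-0.88 ± 0.21, edgeR adjusted p = 0.000585) and tubular-like cells (-0.99 ± 0.13, edgeR adjusted p = 4.34e-10). The mural-like call was lost without cells carrying markers of another type (-0.41, edgeR adjusted p = 0.32).

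For Cd151, parietal epithelial-like cells had 436, 482, 425 and 431 CPM in replicates 1 to 4, podocyte-like cells 402, 481, 371 and 408, and endothelial-like cells 236, 243, 185 and 163. The first 2 groups overlapped (log2 difference 0.03 ± 0.14, parietal epithelial-like over podocyte-like, edgeR adjusted p = 0.949), and both stood above the endothelial-like values. Cd151 rose in podocyte-like (log2 fold 0.98 ± 0.09, edgeR adjusted p = 6.71e-17) and parietal epithelial-like cells (1.02 ± 0.15, edgeR adjusted p = 8.44e-08) and fell in tubular-like cells (-1.23 ± 0.13, edgeR adjusted p = 2.02e-13). The mural-like fold of -0.53 ± 0.20 passed narrowly (edgeR adjusted p = 0.0468) and was lost under each of 4 omissions of a library.

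**Figure D3:**
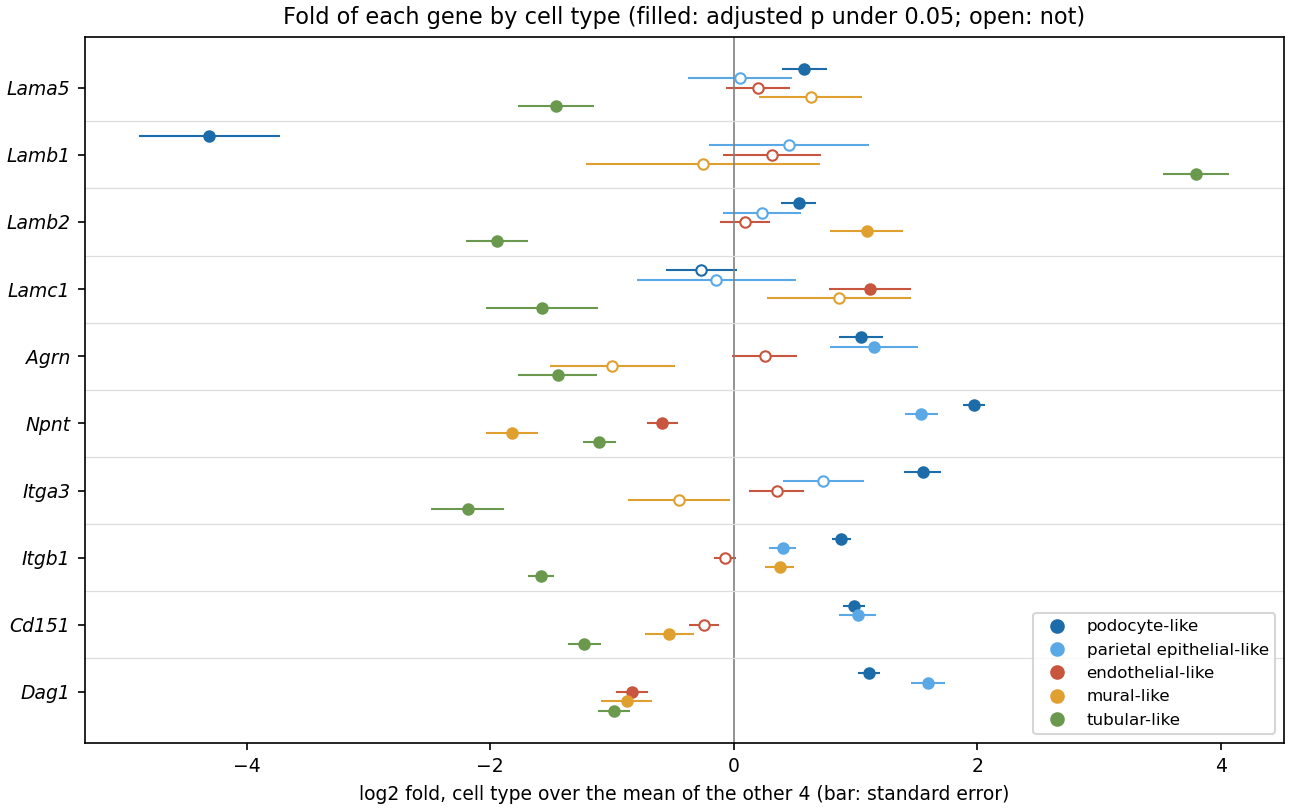
Log2 fold of each gene (horizontal axis, bars are standard errors) in each of 5 cell types over the mean of the other 4; filled points passed an adjusted p of 0.05 and open points did not. Podocyte-like points are filled right of 0 for 8 genes and left of 0 for Lamb1, and tubular-like points right of 0 for Lamb1 and left of 0 for the other 9 genes.

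By cell type, 5 of the 10 genes rose in parietal epithelial-like cells and 0 fell, against 10% and 4.19% of all genes. These cells also carried podocyte transcripts, whose part in that count was not tested. Relative to the podocyte-like level, Dag1 stood at 137%, Agrn at 115%, Cd151 at 107%, Npnt at 83.3% and Itgb1 at 80.6%. The 10 podocyte markers ranged from 41.7 to 88.2% there. In endothelial-like cells 1 rose and 2 fell (27.5% and 21% of all genes). In mural-like cells 2 rose and 3 fell (12.1% and 9.58% of all genes), and with RLE size factors the split over all genes there turned from 906 higher and 718 lower to 997 and 516. In tubular-like cells 1 rose and 9 fell, against 27.3% and 26.5% of all genes. Podocyte-like and parietal epithelial-like cells, compared directly, differed for 3 of the 10 genes, with 1 higher in podocyte-like cells (Itgb1) and 2 lower (Lamb1 and Dag1), where 3.12% of all genes were higher and 5.27% lower. With DESeq2 the all-gene split there turned from 234 higher and 395 lower to 142 and 546. Without replicate 4 the count of 3 was 0, and without replicate 1 it was 1. The median log2 fold of the 10 genes and of all genes was 0.59 and 0.02 for parietal epithelial-like, 0.14 and 0.01 for endothelial-like, -0.35 and -0.12 for mural-like and -1.45 and -0.05 for tubular-like cells.

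Between single types, podocyte-like over endothelial-like cells gave 6 genes higher and 2 lower (29.7% and 30.2% of all genes), with Lama5 and Lamb2 not called. Podocyte-like over mural-like cells gave 6 higher and 1 lower (16.6% and 16.5% of all genes), and podocyte-like over tubular-like cells 9 higher and 1 lower (29.4% and 29.6%). With RLE size factors the all-gene split turned from 1243 higher and 1239 lower to 952 and 1470 for podocyte-like over mural-like cells, and from 2204 and 2215 to 1704 and 2677 for podocyte-like over tubular-like cells. The lower genes were Lamb1 in all 3 pairs, and Lamc1 against endothelial-like cells. Endothelial-like over tubular-like cells gave 8 higher and 1 lower (33.2% and 29%), parietal epithelial-like over tubular-like cells 7 and 1 (18.1% and 17.8%), and mural-like over tubular-like cells 5 and 1 (17.8% and 20.8%). Lamb1 was the lower gene in each of these.

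Parietal epithelial-like cells exceeded endothelial-like cells in Cd151, Dag1, Itgb1 and Npnt, so that endothelial-like over parietal epithelial-like gave 0 higher and 4 lower (16.4% and 15% of all genes). Mural-like over parietal epithelial-like cells gave 0 higher and 4 lower (9.37% and 9.65%), namely Agrn, Cd151, Dag1 and Npnt. Endothelial-like over mural-like cells gave 1 higher, Npnt (0.99, edgeR adjusted p = 0.00139), and 1 lower, Itgb1 (-0.36, edgeR adjusted p = 0.0347), where 15.2% and 10.6% of all genes were called. With DESeq2 the all-gene split of this pair turned from 1141 higher and 792 lower to 813 and 943. The count of 2 called genes was 1 without replicate 1, 3 or 4.

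Endothelial-like cells fell into subclusters in which Npnt was unequal, and in which Lamb1 rested on few UMIs. Npnt averaged 336 ± 156 CPM in subcluster 4 (141 cells, led by Mgp, Igf2 and Fbln5) and 234 ± 23.1 in subcluster 1 (409 cells, led by Calca and Tspan8), against 65.8 ± 36.9 in subcluster 0 (800 cells, led by globin genes) and 74.8 ± 59.2 in subcluster 2 (269 cells; SD, n = 4). Red blood cell markers were uneven over libraries, at 0.000386 to 0.239% of endothelial-like UMIs. Endothelial markers summed to 11626 CPM in subcluster 0, 7133 in subcluster 1, 11269 in subcluster 2 and 8314 in subcluster 4. The 10 podocyte markers together summed to 2088 CPM in subcluster 4 and 1848 in subcluster 1, against 1680 in subcluster 0 and 1750 in subcluster 2. Lamb1 averaged 24.7 ± 15.8 CPM in subcluster 0 on 15 UMIs and 32.0 ± 31.5 in subcluster 2 on 6 UMIs. In subcluster 1 it averaged 2.17 ± 4.34 CPM on 1 UMI. Subcluster 4 had no Lamb1 UMI, but 3 UMIs, the limit that a count of 0 allows, would be 26.9 CPM there. That is too little depth to set subcluster 4 apart from subcluster 0. Subcluster 3 (206 cells) had podocyte markers at 16172 CPM and 766 ± 130 CPM of Npnt. These subclusters were described without a test.

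**Figure D4:**
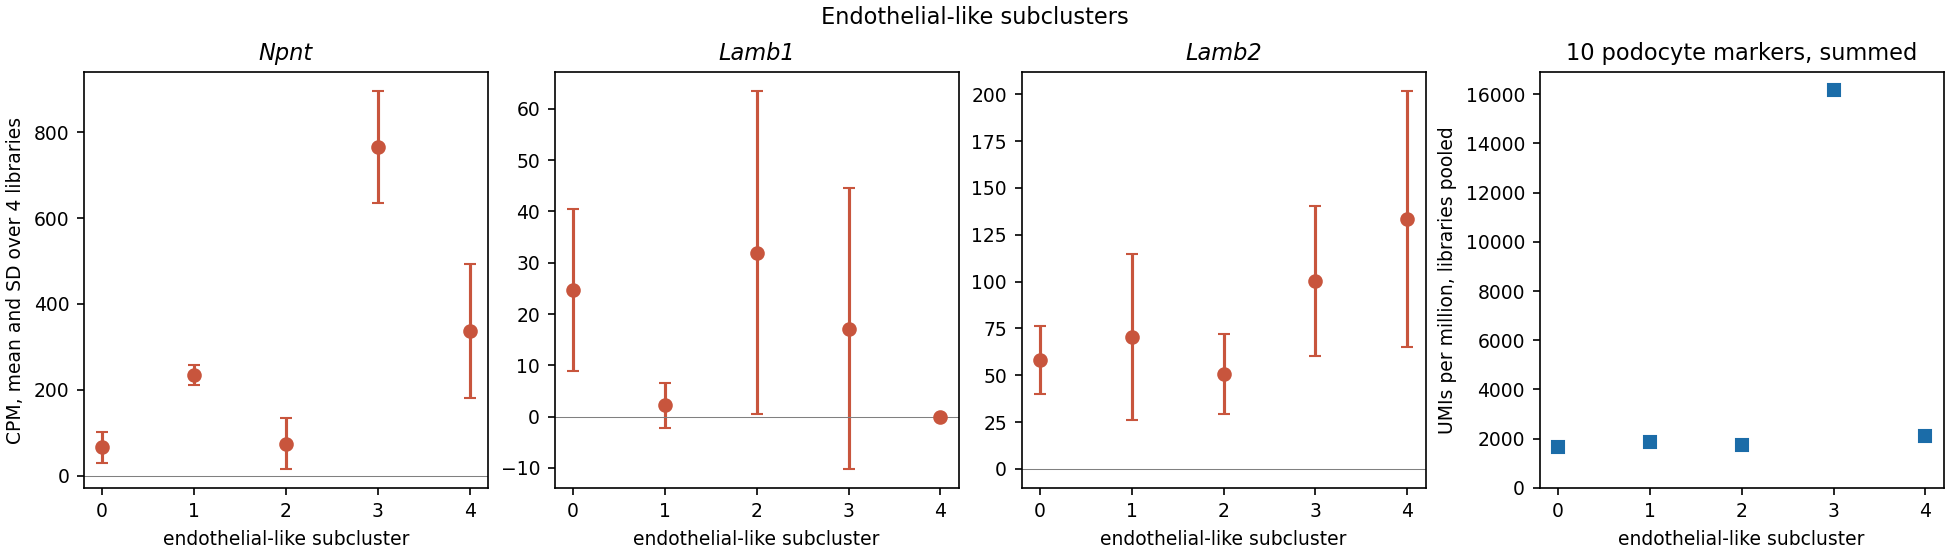
Npnt, Lamb1 and Lamb2 in CPM (vertical axes, mean and SD over 4 libraries) and the summed CPM of 10 podocyte markers (right, libraries pooled) in endothelial-like subclusters 0 to 4 (horizontal axes). Npnt is 234 and 336 CPM in subclusters 1 and 4. Podocyte markers are at 1848 and 2088 CPM there, against 1680 and 1750 CPM in subclusters 0 and 2.

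Mural-like subclusters are described without a test. Subcluster 1 (94 cells, led by Ptn) had 5933 CPM of mesangial markers, against 1392 in subcluster 0 (116 cells) and 777 in subcluster 2 (78 cells). It held 846 ± 257 CPM of Itga8, the integrin subunit that binds nephronectin, against 55.6 ± 20.4 in subcluster 0 (SD, n = 3). Lamb2 averaged 59.5 ± 55.9 CPM in subcluster 1, against 254 ± 122 in subcluster 0, on 5 and 25 UMIs. The 4 Lamb1 UMIs of mural-like cells lay in subcluster 1, at 42.8 CPM, while 3 UMIs, the limit that a count of 0 allows, would be 26.4 CPM in subcluster 0 and 46.6 CPM in subcluster 2, too little depth to set the subclusters apart. In tubular-like cells Lamb1 was found in more than 1 subcluster. It averaged 102 ± 21.7 and 129 ± 35.1 CPM in subclusters 0 and 1, both rich in distal convoluted tubule markers (SD, n = 4). Subcluster 3 (connecting and principal cell markers, led by Klk1 genes) had 115 ± 68.9 CPM (SD, n = 3). Pooled over libraries, subcluster 4 (Aqp2) had 63.2 CPM and subcluster 6 (thick ascending limb) 205, each from 7 UMIs. Subcluster 5 (intercalated) had 21.5 CPM from 2 UMIs, under the 32.2 CPM that 3 UMIs would give. Tubular-like cells had 0 UMIs of Slc34a1 and 2 of Lrp2, proximal tubule markers, so the proximal tubule is not described here. Subcluster 2 (116 cells), where podocyte markers summed to 9681 CPM, had 97.4 ± 37.5 CPM (SD, n = 3). Thinned to 500 UMIs, 5.11% ± 1.36 of tubular-like and 0.0807% ± 0.0468 of podocyte-like cells had a Lamb1 UMI, against 18.4% ± 1.99 and 0.159% ± 0.0985 unthinned (SD, n = 4), with median depths of 1819 and 1018 UMIs. Tubular-like cells also had more mitochondrial UMIs (median 14.4%, against 4.26% in podocyte-like cells).

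Of 94 related genes listed (aliases included), 52 could be tested. Of the 7 listed basement membrane partners tested, podocyte-like cells were higher in 4 (Col4a3, Col4a4, Col4a5 and Col18a1) and lower in 3, against 25.6% and 20.6% of all genes. Col4a1, a collagen IV chain of most basement membranes, averaged 221 ± 78.1 CPM in mural-like and 134 ± 45.0 in endothelial-like cells, against 1.69 ± 1.12 in podocyte-like cells (SD, n = 4). Its fold in podocyte-like cells was -5.44 ± 0.31 (edgeR adjusted p = 3.76e-28), and Col4a2 and Nid1 fell with it. All 7 fell in tubular-like cells, where 26.5% of all genes fell. Of other laminin chains, Lama1, Lama2, Lama3, Lama4 and Lamc3 had at most 19 UMIs in any type.

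In podocyte-like cells, where 25.6% of all genes were higher and 20.6% lower, 7 of 11 other matrix receptors tested rose and 2 fell. Itgb8, a subunit that pairs with integrin alpha v, averaged 154 ± 21.7 CPM there (log2 fold 1.90 ± 0.16, edgeR adjusted p = 8.23e-19). Itga8 was found at 214 ± 92.4 CPM in mural-like cells (7.94 ± 0.51, edgeR adjusted p = 3.52e-24), against 0.61 ± 0.678 in podocyte-like cells (SD, n = 4). Of 15 adaptors that link integrins to actin, 8 rose and 3 fell in podocyte-like cells and 2 rose and 11 fell in tubular-like cells (27.3% and 26.5% of all genes). Parva averaged 470 ± 70.7 CPM in podocyte-like cells (1.64 ± 0.10, edgeR adjusted p = 3.02e-27). Of 9 dystroglycan partners tested, 3 rose and 1 fell in podocyte-like cells, and Dmd, which encodes dystrophin, rose in mural-like cells (87.0 ± 48.6 CPM; 2.84 ± 0.45, edgeR adjusted p = 2.71e-07). Of 9 other tetraspanins, 4 rose and 4 fell in podocyte-like cells, and Cd9 fell there (log2 fold -4.97 ± 0.77, edgeR adjusted p = 4.65e-08). None of the 5 listed nephronectin partners could be tested.

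Genes whose levels were most like those of a member were named by the Pearson correlation of log2(CPM + 1) over the 20 library-by-type sums, which share libraries and depth and are not independent. Npnt was most like Dpp4 (r = 0.975), Vegfa (0.963) and Nphs1 (0.962). Itgb1 was most like Afap1 (0.973), Cd151 most like Ifrd1 (0.979), Dag1 most like Epb41l5 (0.947), Agrn most like Hivep1 (0.943) and Itga3 most like Sbds (0.949). Among the laminin chains, Lamb2 was most like Epn2 (0.942), Lamc1 most like Zfp131 (0.916), Lamb1 most like Nabp1 (0.898) and Lama5 most like Clk1 (0.845).

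The bulk comparison set dissociated, fixed and sorted cells against whole live glomeruli. It had 1 library each, with 24555632 counts on genes in the dissociated and 28407317 in the whole library, so it has no replicate check and no test. Lamb1 was the member past 2-fold, and it was lower in the dissociated library, where 10.6% of 12692 genes were past 2-fold higher and 19.1% past 2-fold lower. Scaling by total counts in place of TMM shifted the median of all genes by -0.30, and Lamc1 then also passed 2-fold lower (-1.11). The median log2 ratio was 0.11 for the 10 genes and -0.02 for all genes. Depth, fixation, sorting and RNA input differed together between these libraries and cannot be told apart, nor can fewer cells of a type and less RNA per cell.

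Lamb1 had 775 counts (35.1 CPM, 95% exact Poisson interval 32.6 to 37.6) in the dissociated library, against 6051 counts (192 CPM, 187 to 197) in the whole library, a log2 ratio of -2.45. Intervals cover counting error alone. Lamc1 had 124 CPM in the dissociated and 217 CPM in the whole library (-0.81). Cd151 (661 against 356 CPM, 0.89) and Npnt (1787 against 1073 CPM, 0.74) were higher in the dissociated library. The log2 ratios of Itga3 (0.39), Lama5 (0.29), Dag1 (0.26), Itgb1 (-0.04), Agrn (-0.05) and Lamb2 (-0.08) were smaller. With total counts the ratios of Lama5 (-0.01) and Dag1 (-0.05) changed sign.

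Per kilobase of exon (RPKM), where genes can be set against each other, Itgb1 had 380 in the dissociated and 392 in the whole library, Npnt 356 and 214, Cd151 241 and 130, Itga3 241 and 183, and Dag1 190 and 159. Lamb2 had 138 and 146, Lama5 77.8 and 63.5, Agrn 75.3 and 77.7, Lamc1 15.0 and 26.2, and Lamb1 3.54 and 19.3. The receptors and Npnt stood above all laminin chains in the dissociated library, and Lamb1 was the lowest of the 10 in both.

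**Figure D5:**
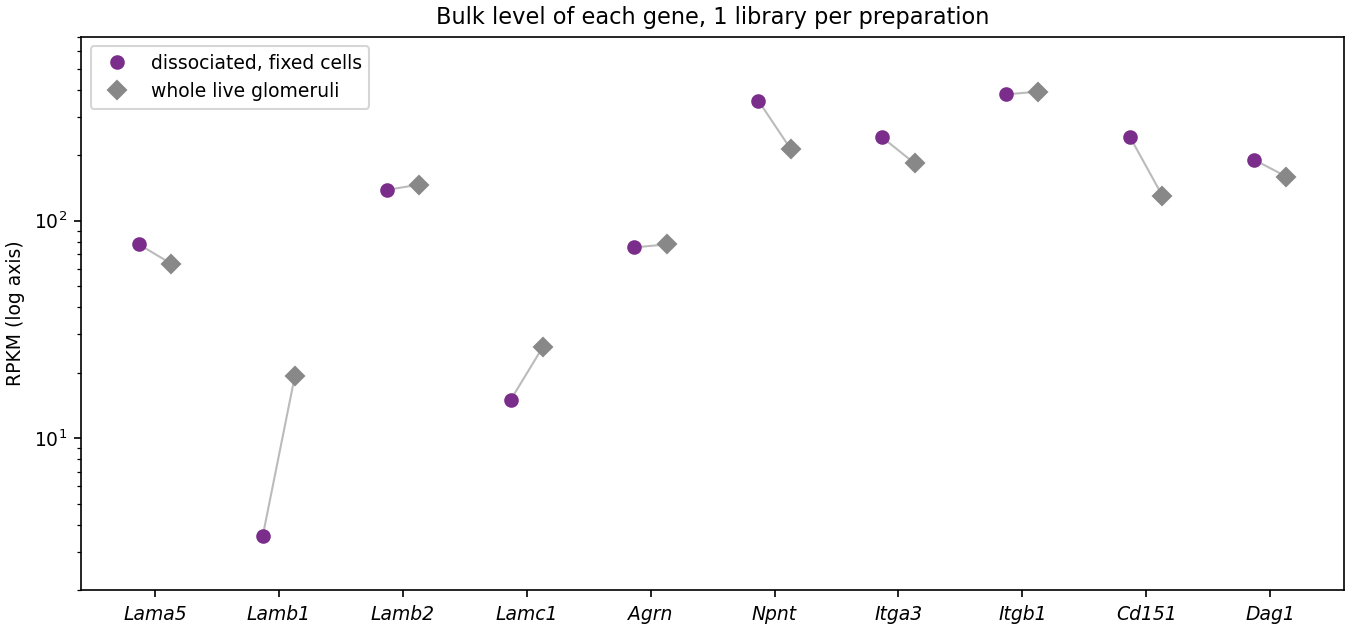
Bulk level of each gene in RPKM (vertical log axis) in dissociated, fixed cells (circles) and whole live glomeruli (diamonds), 1 library each. Lamb1 is at 3.54 RPKM in the dissociated and 19.3 in the whole library, the widest gap of the 10.

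Markers of some cell types moved with this comparison. All 6 mesangial markers were past 2-fold lower in the dissociated library (summed level 207 CPM, against 2724 in the whole library). Of 11 endothelial markers 8 were past 2-fold lower (2444 against 7297 CPM), and 1, Cldn5, was past 2-fold higher (552 against 199 CPM). Of 4 smooth muscle and renin markers with enough counts, 0 were past 2-fold in either direction. All 6 listed summed to 424 CPM in the dissociated and 450 CPM in the whole library. Of 10 podocyte markers 8 were past 2-fold higher (46990 against 24140 CPM), and of 10 tubular markers 3 were lower and 1 was higher (1317 against 2108 CPM). Their part in the Lamb1 ratio was not tested. Among related genes, Itga8 had the lowest ratio (13.5 CPM in the dissociated and 1189 CPM in the whole library, log2 ratio -6.45), followed by Nid1 (21.6 and 505 CPM, -4.54) and Ddr2 (1.76 and 40.1 CPM, -4.45). Col4a2 (-3.80), Lama2 (-3.45), Tns1 (-3.38) and Lama4 (-2.47) were lower too. Of 5 other laminin chains with enough counts 4 were past 2-fold lower, and of 21 other matrix receptors 12 were lower and 5 higher, against 19.1% of all genes lower and 10.6% higher. In the Drop-seq tables, whose cells were dissociated as well, Lamb1 had 58, 191, 87 and 83 UMIs over all barcodes of replicates 1 to 4 and 40, 126, 55 and 49 in the kept cells.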

How the data were processed

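Single-cell and bulk tables hold raw counts as the authors deposited them, UMI counts per gene and cell for Drop-seq and read counts per gene for bulk. STAR and HTSeq are named without versions per the submitters' processing notes, and the bulk libraries used a TruSeq stranded mRNA kit per the labels' protocols. The genome build, the annotation and the strand setting of the counting are not given in the sources used here. The 10 genes, the gene lists and the tests were chosen with earlier results of these data known.

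Barcodes under 300 genes (888) or over 20% mitochondrial UMIs (584) were left out. Counts were scaled to 10000 and log-transformed, and Leiden clustering (resolution 1, 2000 variable genes without the 10 genes and the related lists, 30 components, 15 neighbours; leidenalg 0.10.2) gave 17 clusters, named from marker lists. 3 choices followed sight of the clusters: the mesangial and the smooth muscle and renin lists were read together as mural-like, a red blood cell name needed 3 of its markers among the 10 leading genes, and a cell counted as mixed with 2 or more markers of another type. Podocyte markers in parietal epithelial-like cells, and parietal epithelial markers in podocyte-like cells, did not count toward this. No doublet caller was run, and leaving out mixed cells was an alternative. That alternative therefore did not check podocyte RNA in parietal epithelial-like cells.

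UMIs were summed per library and type. Genes kept by filterByExpr (7492) were fitted in edgeR 4.0.16 (quasi-likelihood, TMM, library as a block, since all 5 types of a library share that library), contrasting every type with the average of the remaining 4 and with single types, with Benjamini-Hochberg adjustment over all genes. Tested on simulated data, the fit found 84% of 2-fold and 95% of 4-fold changes for podocyte-like cells, and 41% and 88% for mural-like cells. For bulk, CPM used TMM, log2 ratios a prior count of 2, and genes with at least 100 counts in both libraries together were compared. RPKM used merged exon lengths of GENCODE M21. Rows of unassigned reads stayed out: no feature 6.14% (dissociated) and 9.68% (whole), ambiguous 3.87% and 3.77%, not unique 14.7% and 9.47%. Alternatives were DESeq2 1.42.0, RLE size factors, no filter, no block, each library left out, other cell filters and resolutions, total-count scaling and other bulk minimums. Named were the 10 genes, up to 3 genes of each related list and cell type with the largest folds past the threshold in one direction in every library, the 3 genes most like each member, and in bulk the 2 genes of each list with the largest ratios. Text names some of these, and any others beside them were chosen after their values were seen. Some genes of the related lists are not reported here.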

Additional observations from a re-analysis of the deposited data

Results flagged for a closer look

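In 50 groups of 4 libraries (10 genes by 5 cell types), 3 had a library whose gap to the nearest other exceeded the 95% critical share of the group's range (Dixon's test), where chance flags about 1 in 20. Dag1 in endothelial-like cells was 224.3 CPM in replicate 3, against 129.2 to 143 in the other libraries. Npnt in podocyte-like cells was 980.5 CPM in replicate 1, against 1085 to 1102 in the others. Lamc1 in mural-like cells was 25.17 CPM in replicate 2, against 30.79 to 31.72 in the others, each value resting on at most 3 UMIs.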

How the results depend on the processing

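All counts below are at an adjusted p of 0.05. With a mitochondrial limit of 10%, 7 of the 10 genes could be tested (not Lama5, Lamb1 or Lamc1) and tubular-like cells left the fit. Without mixed cells 8 could be tested (not Lama5 or Lamc1), and with at least 500 genes per cell 9 (not Lamc1). Without a filter on low counts, all genes higher numbered 5079 in podocyte-like and 3502 in tubular-like cells, against 1919 and 2042, and all genes lower 992 for podocyte-like and 504 for parietal epithelial-like cells, against 1540 and 314. With the 10% limit, all genes higher were 1138 for podocyte-like, 962 for endothelial-like, 548 for mural-like and 350 for parietal epithelial-like cells (main values 1919, 2059, 906 and 749), and all genes lower 865, 964 and 402 in the first 3 (1540, 1573 and 718). Without mixed cells, all genes higher were 1365 for endothelial-like, 595 for mural-like and 1356 for tubular-like cells, and all genes lower 908 for podocyte-like, 468 for mural-like and 1190 for tubular-like cells (1983 in the main fit). With at least 500 genes per cell, all genes lower were 888 for endothelial-like, 463 for mural-like and 195 for parietal epithelial-like cells. DESeq2 gave 397 lower in mural-like cells.

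Of the 10 genes, those lower in podocyte-like cells numbered 0 with the 10% limit and 0 without mixed cells, against 1; Lamb1, that gene, was not tested with the 10% limit. In endothelial-like cells 0 were higher with the 10% limit, with 500 genes and without mixed cells, against 1, since Lamc1 was not tested in any of these, while 4 and 1 were lower with the 10% limit and with 500 genes, against 2. In mural-like cells 0 were higher with no filter and with the 10% limit, and 0 to 2 with a library left out, against 2, and 1 was lower without mixed cells, against 3. In parietal epithelial-like cells 3 were higher with no filter, with the 10% limit and at resolution 1.5, against 5. With no filter 1 of the 10 differed between endothelial-like and mural-like cells, against 2 (1 to 2 with a library left out), and 5 between podocyte-like and parietal epithelial-like cells, against 3 (0 to 3 with a library left out).

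Libraries pair the cell types, so the fit has the library as a replicate block. Without the replicate block, 1 of the 10 was higher in mural-like cells, 1 differed between endothelial-like and mural-like cells, and 1 between podocyte-like and parietal epithelial-like cells. In bulk, total-count scaling gave 2 of the 10 past 2-fold lower and 759 of all genes past 2-fold higher, against 1 and 1347. A minimum of 10 counts gave 2183 higher and 3991 lower, against 1347 and 2423.

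Among single log2 folds, Itgb1 in parietal epithelial-like cells, called in the main fit, was -0.27 with the 10% limit. The other folds that changed sign were not called. With the 10% limit these were Lamb2 (-0.51), Itga3 (-0.15) and Agrn (-0.20) in endothelial-like and Lamb2 (-0.24) and Itga3 (-0.19) in parietal epithelial-like cells. With no filter they were Lamc1 in podocyte-like (0.14) and Lama5 (-0.22) and Lamb2 (-0.037) in parietal epithelial-like cells. Lama5 in parietal epithelial-like cells was also -0.00050 with DESeq2, -0.0052 with RLE size factors and -0.020 at resolution 0.5. Lamb2 in endothelial-like cells was -0.13 without mixed cells and Itgb1 there 0.024 with 500 genes. With a library left out, uncalled folds ranged across 0 for Lamc1 in podocyte-like cells (-0.39 to 0.12), Lamb1 in endothelial-like (-0.10 to 0.91) and mural-like cells (-1.94 to 0.38), and for Lama5 (-0.47 to 0.35), Lamb1 (-0.12 to 0.95), Lamb2 (-0.25 to 0.51) and Lamc1 (-0.58 to 0.10) in parietal epithelial-like cells. The cause was not tested. Low UMI totals, 4 to 30 for these laminin chains in mural-like and parietal epithelial-like cells, limit what could be detected there.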
